A study of Rattus norvegicus with 40 samples.

Results

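The genes described here make cholesterol and fatty acids, or set how strongly the liver makes them. They were chosen by function, as 35 of the 17337 genes counted in rat liver, and fall into a sterol arm of 19 genes from acetyl-CoA to cholesterol, a fatty acid arm of 11 genes from citrate to triglyceride, and 5 regulators. No measured value entered the choice, but the genes were picked with earlier results of these data known. All 35 passed the filter on low counts in every comparison. The values are counts of RNA-seq read pairs scaled to the size of the library, as CPM (counts relative to a fixed library total). CPM takes no account of gene length, so single genes were compared with themselves across groups, and levels of different genes were set against each other only as the means of the 2 arms, described below.

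Male Fischer 344 rats, 7 weeks old at the start, received weekly intraperitoneal injections of 50 mg/kg diethylnitrosamine (DEN), a liver carcinogen, diluted in olive oil. Livers were sampled after 8 weeks of injections, after 14 weeks, and at 20 weeks, when 14 weeks of injections had been followed by 6 weeks without any. Rats of the same ages that were given no DEN were the controls, and since no source says whether they received the oil, an effect of oil or handling and one of DEN cannot be told apart. Each of the 8 groups held 4 rats: no DEN liver and non-tumoral (NT) liver of DEN rats at each of the 3 times, and nodules (labelled tumoral) at 14 and 20 weeks. The NT liver and the 2 nodules of 1 time came from the same 4 rats, and the 2 nodules of a rat were added together, so n is 4 rats throughout. The rats were fed ad libitum. The hour of sampling and the time since the last meal, on which many of these genes depend, were not given in the sources used here. The DEN rats carry 2 series of labels, F (1 at each later time and 2 at 8 weeks) and H, whereas all no DEN rats are labelled H.

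Both arms start from acetyl-CoA in the cytosol and consume NADPH. Their shared regulators are the sterol regulatory element binding proteins (SREBPs), transcription factors made as inactive precursors in the membrane of the endoplasmic reticulum. SCAP escorts the precursor to the Golgi apparatus, where proteases release the active factor, and the INSIG proteins hold SCAP back when sterols are plentiful. SREBP-2, from Srebf2, mainly drives genes of cholesterol synthesis and uptake, whereas SREBP-1c, the main liver product of Srebf1, drives fatty acid synthesis under insulin. In the fed liver both arms are active and much of their output leaves as lipoprotein.

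The 40 libraries held between 20528515 and 160622633 counted read pairs (median 30477421), and the deepest one, NT liver of rat H26 at 20 weeks, was 4.08 times as deep as the next. Albumin took between 10.4% and 19.0% of the counts, so the tissue label held. Markers of several cell types were called different between DEN and no DEN liver, where 14.3% to 23.9% of all genes tested were called higher and 5.21%, 9.85%, 3.82%, 15.2% and 15.2% lower. Of 10 hepatocyte genes, 2, 7, 1, 7 and 7 were called lower than in no DEN liver (NT liver at 8, 14 and 20 weeks, then nodules at 14 and 20 weeks), and their sum ran from 299200 to 345100 CPM in no DEN liver, from 197500 to 313200 in NT liver and from 168800 to 240000 in nodules. All 6 cholangiocyte genes were called higher in NT liver at 14 and 20 weeks and in both nodule groups, with a sum of 17.5 to 25.2 CPM in no DEN liver, 32.0 to 113 in NT liver and 73.1 to 222 in nodules. In every one of the 5 comparisons 7 of 8 endothelial genes were called higher, with sums of 71.0 to 167 CPM in no DEN liver and 178 to 245 in DEN liver. Between 5 and 8 of 10 stellate and fibroblast genes were called higher, with sums of 193 to 281 CPM in no DEN liver and 264 to 517 in DEN liver, and Col1a2 was listed at 0 throughout. Between 3 and 7 of 11 leukocyte genes were called higher, and the DEN and no DEN ranges of their sum overlapped in each week. At 8 weeks the sum was 286 to 509 CPM in no DEN liver and 391 to 411 in NT liver. At 14 weeks it was 230 to 321 in no DEN liver, 229 to 442 in NT liver and 247 to 380 in nodules. At 20 weeks these were 189 to 321, 267 to 449.8 and 272 to 320, so that NT liver reached above all controls at both later times. Only 2 adipocyte genes were expressed highly enough to test, and the sum of the 6 on the list was low in all groups. The DEN and no DEN ranges of this sum overlapped at 8 weeks (15.3 to 29.7 CPM in no DEN liver and 21.3 to 38.5 in NT liver) but not later, at 14.5 to 18.6 in no DEN liver, 20.7 to 29.0 in NT liver and 27.99 to 51.1 in nodules at 14 weeks and at 10.7 to 19.0, 23.3 to 32.2 and 26.4 to 38.1 at 20 weeks, when DEN liver was above no DEN liver. In bulk liver, fewer hepatocytes and less RNA per hepatocyte cannot be told apart, and the part of cell composition in the results below was not tested.

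A gene was called when its level differed by at least 0.5 on the log2 scale with an adjusted p of at most 0.05 (edgeR quasi-likelihood test, Benjamini-Hochberg over all genes tested). At 8 weeks 9 of the 35 genes were lower in NT liver than in no DEN liver and none was higher, where 5.21% of all genes tested were called lower and 16.5% higher. At 14 weeks 17 were lower and 2 higher, against 9.85% and 22.8% of all genes. At 20 weeks 15 were lower and none higher, against 3.82% and 14.3%. In nodules against no DEN liver 20 were lower and 2 higher at 14 weeks, where 15.2% of all genes were lower and 23.9% higher, and 24 were lower and none higher at 20 weeks, where 15.2% were lower and 23.6% higher. In each of the 5 comparisons the share of synthesis genes called lower was above that of all genes and the share called higher was below it. The NT and nodule comparisons of 1 time share their no DEN rats.

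The 3 sets differed in how far they moved. In the order given above (NT liver at 8, 14 and 20 weeks, then nodules at 14 and 20 weeks), 5, 8, 7, 10 and 10 of the 11 genes of the fatty acid arm were called lower, with median log2 fold changes of -0.71, -1.02, -0.88, -1.41 and -1.50. Of the 19 genes of the sterol arm 3, 6, 6, 6 and 11 were called lower, with medians of -0.20, -0.29, -0.32, -0.39 and -0.59. Of the 5 regulators 1, 3, 2, 4 and 3 were called lower. The median of all genes lay between -0.00776 and 0.0196 in these comparisons. Under a stricter rule, at least a 2-fold difference with an adjusted p of at most 0.01, 3 genes of the fatty acid arm were lower in NT liver at 8 weeks (7.91% of all genes passed in either direction), 4 genes of that arm and 2 regulators at 14 weeks (15.2%), and 1 gene of that arm at 20 weeks (5.22%). No gene of the sterol arm passed it in NT liver, and no member passed it as higher. Over the 35 genes these counts were about the share of all genes at 8 and 14 weeks and below it at 20 weeks. The ranges of the 4 rats separated completely, with the DEN rats below, for 13, 18 and 19 of the 35 genes in NT liver, where 14%, 26% and 12.4% of all genes tested did so, and for 22 and 23 in nodules, where 23.9% and 21.5% did. In all, 6 genes were called lower in all 5 comparisons: Nsdhl and Sc5d of the sterol arm, Insig2, and Acly, Acaca and Acacb of the fatty acid arm. Another 8 were called in none of them (Acat2, Mvk, Mvd, Msmo1, Hsd17b7, Dhcr7, Srebf2 and Elovl6). The shares of all genes called lower in all 5, or called in none, were not counted, and comparisons of 1 time share rats.

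**Figure D1:**
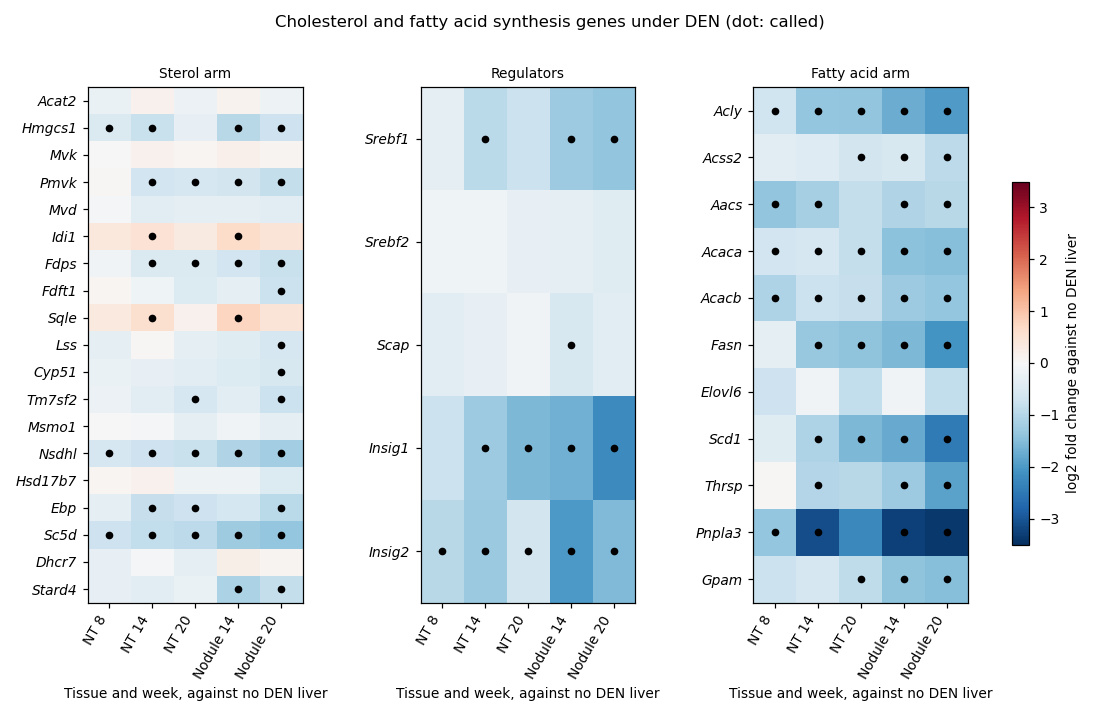
Log2 fold changes of the 35 genes (rows, grouped as sterol arm, regulators and fatty acid arm) in the 5 comparisons with no DEN liver (columns, 4 rats against 4), on a colour scale in log2 units; a dot marks a called difference. The fatty acid arm is the darker block, reaching -3.37 for Pnpla3 in nodules at 20 weeks, while Idi1 and Sqle are the only rows positive in all 5 columns.

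The direction of the sterol arm at 14 weeks depended on the scaling. When libraries were scaled to the 10 hepatocyte genes, an alternative chosen after seeing the data, the median of all genes moved up by 0.18, 0.45 and 0.22 on the log2 scale in NT liver at 8, 14 and 20 weeks, to 0.17, 0.47 and 0.24, and by 0.66 and 0.57 in nodules at 14 and 20 weeks. Against hepatocyte genes 6, 6 and 8 of the 35 genes were called lower in NT liver and 2, 5 and 1 higher, where 1.86%, 2.54% and 1.51% of all genes were lower and 21.6%, 45.9% and 22.1% higher. In nodules 10 and 13 were called lower and 6 and 4 higher, where 3% and 3.67% of all genes were lower and 59% and 53.7% higher. The median of the sterol arm then became -0.03, 0.14 and -0.10 in NT liver and 0.28 and -0.01 in nodules, so that its direction turned at 14 weeks, whereas the median of the fatty acid arm remained negative, at -0.53, -0.61 and -0.64 in NT liver and -0.79 and -0.92 in nodules. Relative to the moved median of all genes the sterol arm lay at -0.20, -0.32, -0.34, -0.38 and -0.58 in the 5 comparisons and the fatty acid arm at -0.70, -1.08, -0.88, -1.44 and -1.50. Of the 89 calls of members in the 5 comparisons 38 ended with their direction kept and 4 turned sign under this scaling, among them every call of Hmgcs1, Pmvk, Fdps, Fdft1, Lss, Cyp51, Tm7sf2, Stard4, Scap and Acss2. It also ended single calls of Nsdhl and Acaca in NT liver at 8 weeks, of Nsdhl, Ebp, Sc5d, Srebf1, Acaca, Acacb, Scd1 and Thrsp in NT liver at 14 weeks, of Insig2, Fasn and Gpam in NT liver at 20 weeks, of Nsdhl, Aacs, Thrsp and Gpam in nodules at 14 weeks and of Ebp and Aacs in nodules at 20 weeks. Every call of Acly, Pnpla3, Insig1, Idi1 and Sqle held. Acly was the one member called lower in all 5 under this scaling, and Idi1 and Sqle were again called higher at 14 weeks in both tissues. With the F rats left out, 7, 18 and 13 genes were called lower in NT liver, against 4.01%, 11.6% and 4.02% of all genes, and 21 and 23 in nodules, against 15.7% and 14.2%.

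Among the regulators Srebf1, the source of SREBP-1, fell in nodules and in NT liver at 14 weeks. It stood at 659, 697, 668 and 519.6 CPM in the 4 no DEN rats of week 8 and at 462, 474, 586 and 527 in NT liver, which overlapped (log2 fold change -0.32, SE 0.11, adjusted p = 0.0471). At 14 weeks the no DEN rats were at 709.9, 787, 614 and 575, NT liver at 278, 366, 298 and 433 and nodules at 191, 309.9, 278 and 339, so that every DEN sample lay below every control. The log2 fold change was -0.93 (SE 0.15, adjusted p = 0.000436) in NT liver and -1.28 (SE 0.18, adjusted p = 0.000408) in nodules. Under the hepatocyte scaling the NT value was -0.48 and no longer called. At 20 weeks the no DEN rats were at 562, 751, 589 and 383, NT liver at 231, 290.4, 326 and 501 and nodules at 167, 278, 244 and 201. Rat H28, with the highest NT value, overlapped the controls, and the difference of NT liver, -0.75 (SE 0.27, adjusted p = 0.07), was not called, while that of nodules, -1.39 (SE 0.22, adjusted p = 0.000728), was. Counts of the whole gene do not separate its 1a and 1c transcripts.

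Srebf2, the source of SREBP-2, differed less between groups and was called in none of the 5 comparisons. Its levels were 55.1, 68.4, 65.0 and 57.1 CPM in no DEN liver and 62.4, 59.0, 48.7 and 52.4 in NT liver at 8 weeks. At 14 weeks they were 63.1, 68.3, 63.5 and 63.9 in no DEN liver, 60.9, 53.4, 53.7 and 59.0 in NT liver and 49.0, 53.7, 53.7 and 53.6 in nodules. At 20 weeks they were 63.4, 61.7, 70.2 and 72.6 in no DEN liver, 50.4, 57.4, 52.0 and 59.6 in NT liver and 47.9, 56.0, 50.3 and 50.2 in nodules. From 14 weeks on the DEN samples lay below the controls without overlap, by small amounts: log2 fold changes ran from -0.15 to -0.42, the last with an adjusted p of 0.00298 but under the fold needed for a call. Scap, the escort of both factors, was called lower in nodules at 14 weeks, at -0.57 (SE 0.10, adjusted p = 0.00144), and not elsewhere. Without rat F06 the Scap difference of nodules at 14 weeks was -0.49 with an adjusted p of 0.000287 and was no longer called, nor was it under upper-quartile scaling (-0.42). Its other log2 fold changes lay between -0.11 and -0.37.

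Insig1, which retains SCAP and is itself a target of SREBP, fell in NT liver from 14 weeks on and in nodules. No DEN liver was at 615, 608, 427 and 411 CPM and NT liver at 327, 135, 423 and 328 at 8 weeks, when the ranges overlapped and the difference was not called (-0.77, SE 0.31, adjusted p = 0.0812). At 14 weeks Insig1 was at 437, 626, 387 and 441 in no DEN liver, 180.4, 172, 165 and 252 in NT liver and 91.4, 172, 143 and 190.1 in nodules. At 20 weeks it was at 466, 958, 518 and 648 in no DEN liver, 156, 112, 248 and 343 in NT liver and 84.5, 155, 176 and 154 in nodules. Every DEN sample lay below every control at both times. Log2 fold changes were -1.26 (SE 0.18, adjusted p = 0.000271) and -1.58 (SE 0.39, adjusted p = 0.0221) in NT liver, and -1.68 (SE 0.24, adjusted p = 0.000411) and -2.22 (SE 0.28, adjusted p = 0.000208) in nodules. Without rat F03 the Insig1 difference of NT liver at 20 weeks was -1.45 with an adjusted p of 0.0555 and was no longer called.

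Insig2, the other retention protein, whose liver transcript insulin is known to lower, was lower in all 5 comparisons. It was at 190.0, 208, 249 and 191 CPM in no DEN liver and 83.2, 119.6, 129.5 and 98.0 in NT liver at 8 weeks, without overlap (-0.97, SE 0.14, adjusted p = 0.000703). At 14 weeks the levels were 310.2, 208, 271 and 219 in no DEN liver, 124, 75.3, 94.2 and 102 in NT liver and 56.8, 56.0, 67.7 and 75.3 in nodules, with the lowest NT liver just above the highest nodule. The difference from no DEN liver was -1.31 (SE 0.17, adjusted p = 0.00017) for NT liver and -2.00 (SE 0.16, adjusted p = 2.21e-05) for nodules. At 20 weeks they were 261, 213, 264 and 316 in no DEN liver, 214, 182, 151 and 121 in NT liver and 103, 143, 68.1 and 54.7 in nodules, where 1 NT liver overlapped the controls (-0.65 in NT liver, SE 0.17, adjusted p = 0.0197, and -1.54 in nodules, SE 0.28, adjusted p = 0.00137). Without rat H26 the Insig2 difference of NT liver at 20 weeks was -0.60 with an adjusted p of 0.0511 and was no longer called. All 5 regulators had their means in the order no DEN liver, NT liver, nodules at both 14 and 20 weeks.

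SREBPs bind promoters weakly and act beside other factors, among them NF-Y, which binds a CCAAT box. RefSeq promoter sequences (250 bases before to 50 after the gene start, assembly GRCr8, another build than the rn6 of the counts) were found for 28 of the 35 genes, with 29 promoters. They are shown for 5 genes whose values the text turns on, 1 that rose (Idi1) and 4 that fell, to set their NF-Y boxes side by side. Capitals mark CCAAT or its reverse complement ATTGG, and each sequence is read 5′ to 3′ along the gene.
Hmgcs1, chr2:53382054-53382353, plus strand: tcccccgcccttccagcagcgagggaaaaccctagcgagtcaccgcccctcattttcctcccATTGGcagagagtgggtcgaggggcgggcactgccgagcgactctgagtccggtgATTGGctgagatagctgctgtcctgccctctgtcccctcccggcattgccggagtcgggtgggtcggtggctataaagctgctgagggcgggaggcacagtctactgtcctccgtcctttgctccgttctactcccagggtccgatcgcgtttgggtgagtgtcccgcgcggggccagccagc
Idi1, chr17:66547475-66547774, minus strand: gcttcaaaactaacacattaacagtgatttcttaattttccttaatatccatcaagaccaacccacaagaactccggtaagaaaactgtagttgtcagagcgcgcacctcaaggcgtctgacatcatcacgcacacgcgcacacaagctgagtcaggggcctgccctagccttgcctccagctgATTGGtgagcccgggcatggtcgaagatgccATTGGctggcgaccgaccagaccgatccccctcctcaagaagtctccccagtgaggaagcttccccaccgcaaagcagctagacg
Sc5d, chr8:51538228-51538527, minus strand: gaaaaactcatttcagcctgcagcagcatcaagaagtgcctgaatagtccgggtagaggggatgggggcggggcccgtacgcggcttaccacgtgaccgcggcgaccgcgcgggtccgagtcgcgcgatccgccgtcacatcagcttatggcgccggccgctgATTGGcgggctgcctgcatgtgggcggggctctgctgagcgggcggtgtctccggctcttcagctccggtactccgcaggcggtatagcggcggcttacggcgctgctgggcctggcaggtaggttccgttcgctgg
Insig1, chr4:8057720-8058019, minus strand: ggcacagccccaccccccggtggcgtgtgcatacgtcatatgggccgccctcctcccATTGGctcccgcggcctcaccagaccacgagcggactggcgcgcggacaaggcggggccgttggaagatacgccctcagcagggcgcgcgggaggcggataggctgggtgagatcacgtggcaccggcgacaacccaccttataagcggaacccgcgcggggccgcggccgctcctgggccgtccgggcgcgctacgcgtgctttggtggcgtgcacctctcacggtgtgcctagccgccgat
Acly, chr10:85963582-85963881, minus strand: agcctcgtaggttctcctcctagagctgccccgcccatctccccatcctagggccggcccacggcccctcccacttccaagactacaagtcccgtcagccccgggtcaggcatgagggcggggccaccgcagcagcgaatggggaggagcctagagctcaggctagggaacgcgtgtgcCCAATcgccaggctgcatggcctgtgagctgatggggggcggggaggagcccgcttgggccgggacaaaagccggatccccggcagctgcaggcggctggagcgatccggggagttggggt
Hmgcs1 and Idi1 each hold 2 boxes although their levels moved in opposite directions, and Sc5d, Insig1 and Acly hold 1 each. CCAAT was found, on either strand, in 23 of the 29 promoters (79.3%), in 12 of 15 of the sterol arm and in 6 of 8 of the fatty acid arm, and in 37.5% of the 33469 promoters of the table (37.2% of those of counted genes). GGGCGG, the core of an Sp1 site, was in 22 of the 29 (75.9%) and in 33.1% of all promoters (53.8% of those of counted genes). The E-box CACGTG was in 3 (10.3%), against 6.42% of all promoters and 8.07% of those of counted genes, and the classical sterol element TCACNCCAC in none, against 1.12% and 1.1%. These are matches of letters in a fixed window of another assembly, and they do not show binding.

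The sterol arm begins with Acat2 and Hmgcs1, which build acetoacetyl-CoA and HMG-CoA. Hmgcs1 was at 497, 517, 646 and 547 CPM in no DEN liver and 441, 314, 436 and 371 in NT liver at 8 weeks, below the controls in all 4 rats (-0.50, SE 0.12, adjusted p = 0.0106). At 14 weeks it was at 591, 493, 739.9 and 639.9 in no DEN liver, 396, 294, 329 and 386 in NT liver and 272, 299, 313 and 382 in nodules, again without overlap (-0.77, SE 0.13, adjusted p = 0.00065, and -0.98, SE 0.15, adjusted p = 0.000582). At 20 weeks, after the pause in DEN, it was at 546, 445, 684 and 731 in no DEN liver, 441, 648, 506 and 364 in NT liver and 379.9, 525, 284 and 294 in nodules. Rat H25 was the highest of both DEN groups and lay inside the control range. The difference in NT liver, -0.29 (SE 0.19, adjusted p = 0.281), was not called, and that in nodules, -0.72 (SE 0.23, adjusted p = 0.022), was. Acat2, at 9.59 to 23.5 CPM over all groups, was called in no comparison. The Hmgcs1 call of NT liver at 8 weeks ended when any 1 of rats F10, H07 or H18 was left out (log2 fold change -0.41 to -0.48, adjusted p 0.0177 to 0.0341), without the F rats (-0.44), under upper-quartile scaling (-0.41) and, just under the fold, with all 8 groups in 1 fit (-0.498). The Hmgcs1 call of nodules at 20 weeks ended when any 1 of rats H15, H16, H26 or H28 was left out (log2 fold change -0.61 to -0.67, adjusted p 0.0546 to 0.0663) or nodule 2 of each rat was used alone (-0.66, adjusted p = 0.0707).

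The mevalonate steps that follow split by gene. Mvk, mevalonate kinase, ranged over 18.6 to 27.9 CPM and had log2 fold changes between -0.03 and 0.18, none called. Pmvk, the next kinase, was at 75.5, 88.1, 75.0 and 67.5 CPM in no DEN liver and 98.9, 79.4, 74.8 and 64.2 in NT liver at 8 weeks, when the groups overlapped (0.05, SE 0.13, adjusted p = 0.795). At 14 weeks it was at 70.4, 76.8, 83.0 and 66.8 in no DEN liver and 51.4, 42.1, 42.9 and 46.6 in NT liver, and it was called lower in NT liver (-0.66, SE 0.09, adjusted p = 0.000136) and in nodules (-0.65), as at 20 weeks (-0.58 and -0.82). Pmvk was the one member called for a change of the NT difference with time: the change from 8 to 14 weeks was -0.71 (SE 0.16, adjusted p = 0.0151), in a test that called 8.96% of all genes. Without rat H26 the Pmvk difference of NT liver at 20 weeks was -0.49 with an adjusted p of 0.0111 and was no longer called. Mvd, the decarboxylase, had log2 fold changes of -0.07, -0.40, -0.35, -0.34 and -0.38, none called.

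Idi1, the isomerase that makes the reactive isoprene unit, went the other way. It was at 40.1, 30.4, 32.4 and 39.9 CPM in no DEN liver, 57.2, 42.9, 49.8 and 49.0 in NT liver and 58.2, 49, 55.7 and 63.0 in nodules at 14 weeks, with every DEN sample above every control. The rise was 0.51 (SE 0.11, adjusted p = 0.0027) in NT liver and 0.64 (SE 0.12, adjusted p = 0.00203) in nodules. At 8 weeks the groups did not overlap either (0.37, adjusted p = 0.00522), but the difference was under the fold for a call, as were those at 20 weeks (0.30 in NT liver and 0.46 in nodules). Fdps, which makes farnesyl diphosphate, was called lower in all but NT liver at 8 weeks, by small amounts: -0.13, -0.50, -0.51, -0.67 and -0.78, with levels of 406 to 465 CPM in no DEN liver and 247 to 311 in nodules at 14 weeks. The Idi1 call of NT liver at 14 weeks ended when any 1 of rats F06, H10 or H11 was left out (log2 fold change 0.42 to 0.46, adjusted p 0.00503 to 0.0114), and it fell just under the fold by DESeq2 (0.49), with RLE scaling (0.495) and with all groups in 1 fit (0.48). In nodules it fell just under the fold with nodule 2 of each rat alone. The Fdps call of NT liver at 14 weeks ended when any 1 of rats H09, H21 or H22 was left out (log2 fold change -0.44 to -0.47, adjusted p 0.00461 to 0.00563). The Fdps call of NT liver at 20 weeks ended when any 1 of rats H14, H25 or H26 was left out (log2 fold change -0.45 to -0.50, adjusted p 0.0101 to 0.0152). Upper-quartile scaling ended both Fdps calls of NT liver (-0.41 and -0.45), and the hepatocyte scaling ended all 4, with -0.07 and -0.31 in NT liver and -0.02 and -0.23 in nodules at 14 and 20 weeks.

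The arm commits to sterols with squalene synthase (Fdft1) and squalene epoxidase (Sqle). Fdft1 was called lower only in nodules at 20 weeks (-0.74, SE 0.14, adjusted p = 0.00185), where it was at 132 to 173 CPM against 219 to 313 in no DEN liver. Sqle, a step known to limit the rate of the pathway, rose with Idi1 at 14 weeks. It was at 22.9, 19.5, 15.5 and 24.1 CPM in no DEN liver, 31.7, 27.4, 28.6 and 31.0 in NT liver and 33.2, 33.1, 34.6 and 39.5 in nodules, again with no overlap with the controls. Log2 fold changes were 0.57 (SE 0.12, adjusted p = 0.00267) and 0.76 (SE 0.14, adjusted p = 0.00184). Without rat H11 the Sqle difference of NT liver at 14 weeks was 0.45 with an adjusted p of 0.00324 and was no longer called. At the other times it was 0.34 and 0.15 in NT liver and 0.45 in nodules, none called. Idi1 and Sqle were thus the 2 members called higher at 14 weeks, and the 2 with a positive value in all 5 comparisons.

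From lanosterol to cholesterol the genes were called in unequal numbers of comparisons. Lss, which closes the ring, and Cyp51, the first demethylase, were called lower only in nodules at 20 weeks (-0.59, SE 0.14, adjusted p = 0.00495, and -0.56, SE 0.10, adjusted p = 0.00144). Tm7sf2, a sterol reductase, was called lower at 20 weeks in NT liver (-0.60) and nodules (-0.74). Without rat F03 the Lss difference of nodules at 20 weeks was -0.46 with an adjusted p of 0.00775 and was no longer called. Both the Lss and the Cyp51 call also ended under upper-quartile scaling (-0.45 and -0.42), with nodule 2 of each rat alone (-0.35 and -0.43), without nodule 1 of F06 and F03 (-0.47 and -0.49) and under the hepatocyte scaling (-0.00741 and 0.000138). Msmo1 and Hsd17b7, the former at 71.5 to 128 CPM and the latter at 4.48 to 9.62, were called nowhere. Nsdhl, which works with them to strip methyl groups from the ring, was called lower in all 5 comparisons.

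Nsdhl was at 393, 398, 435 and 353 CPM in no DEN liver and 267, 224, 313 and 256 in NT liver at 8 weeks (-0.58, SE 0.11, adjusted p = 0.00243). At 20 weeks it was at 351, 407, 384 and 435 in no DEN liver, 217, 208, 219 and 261 in NT liver and 163, 197, 159.9 and 171 in nodules. The 3 groups of week 20 did not overlap, in that order, with -0.79 (SE 0.10, adjusted p = 0.000738) in NT liver and -1.22 (SE 0.12, adjusted p = 5.87e-05) in nodules. At 14 weeks the values were -0.72 and -1.05. The Nsdhl call of 8 weeks ended under upper-quartile scaling (-0.49), without the F rats (-0.46, adjusted p = 0.0109) and under the hepatocyte scaling (-0.40), the last of which also ended the calls of 14 weeks (-0.28 in NT liver and -0.40 in nodules). Ebp, a sterol isomerase, was at 201, 198, 169 and 181 CPM in no DEN liver and 138, 83.9, 92.9 and 98.5 in NT liver at 14 weeks, and it fell by 0.82 on the log2 scale (SE 0.14, adjusted p = 0.000892). The nodules of that week were at 206, 94.2, 99.1 and 98.3: rat F06 stood at control level while the other 3 lay well below it, and the difference, -0.60 (SE 0.25, adjusted p = 0.0749), was not called. At 20 weeks Ebp was lower in NT liver (-0.72) and nodules (-0.95).

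Sc5d, the desaturase before the last step, fell in all 5 comparisons. It was at 293, 280.0, 349.7 and 289 CPM in no DEN liver and 188, 165, 207 and 178 in NT liver at 8 weeks. It was at 332, 300.4, 296 and 301 in no DEN liver, 211, 139.5, 146 and 165 in NT liver and 139.7, 123, 124 and 143 in nodules at 14 weeks. The ranges of DEN and no DEN rats did not overlap at either time, with differences of -0.72 (SE 0.10, adjusted p = 0.000442) and -0.86 (SE 0.12, adjusted p = 0.000192) in NT liver and -1.23 (SE 0.09, adjusted p = 1.62e-05) in nodules. The hepatocyte scaling ended the Sc5d call of NT liver at 14 weeks (-0.43). At 20 weeks it was at 324, 344, 296 and 340.1 in no DEN liver, 170.3, 166, 174 and 177 in NT liver and 133, 154, 118 and 119 in nodules, 3 separate ranges. The fall was -0.91 (SE 0.08, adjusted p = 0.000142) in NT liver and -1.34 (SE 0.12, adjusted p = 4.28e-05) in nodules. Dhcr7, which makes cholesterol in the last step of one branch, did not share it: no value was called, with -0.32 in NT liver and 0.09 in nodules at 20 weeks.

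Stard4, a carrier that moves cholesterol between membranes, was lower in nodules but was not called in NT liver. At 14 weeks it was at 29.9, 33.6, 25.6 and 22.6 CPM in no DEN liver, 22.5, 18.9, 19.0 and 21.6 in NT liver and 9.02, 13.8, 13.4 and 16.1 in nodules. The nodules lay below both other groups, at -1.11 (SE 0.18, adjusted p = 0.00101) from no DEN liver, and NT liver at -0.41 (SE 0.12, adjusted p = 0.0133). At 20 weeks the values were -0.83 for nodules, called, and -0.23 for NT liver.

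Of the genes that supply the fatty acid arm with precursors, Acly fell at all 3 times. It cleaves citrate to give cytosolic acetyl-CoA and was called lower in all 5 comparisons, with log2 fold changes of -0.71, -1.35, -1.39, -1.73 and -1.97. At 14 weeks it was at 1153, 1056, 864 and 845 CPM in no DEN liver, 423, 289.6, 262 and 528 in NT liver and 265, 252, 234 and 450.5 in nodules. The controls stood above both DEN tissues without overlap (-1.35, SE 0.22, adjusted p = 0.000693, and -1.73, SE 0.22, adjusted p = 0.000255), and rat H23 was the highest DEN rat in both tissues. Acss2, which makes acetyl-CoA from acetate, moved less, with -0.41, -0.44, -0.63, -0.56 and -0.92, the last 3 of them called. The Acss2 call of nodules at 14 weeks ended when any 1 of rats H09, H21 or H22 was left out (log2 fold change -0.46 to -0.48, adjusted p 0.034 to 0.0405), under upper-quartile scaling (-0.41) and without nodule 1 of F06 and F03 (-0.49). Aacs, which activates the ketone body acetoacetate for lipid synthesis, had its largest difference at 8 weeks. It was then at 11.5, 10.8, 8.58 and 4.79 CPM in no DEN liver and 4.46, 2.71, 3.03 and 3.39 in NT liver, with no overlap (-1.39, SE 0.26, adjusted p = 0.00271). Later log2 fold changes were -1.16 and -0.82 in NT liver, the second not called, and -1.06 and -0.96 in nodules.

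Both acetyl-CoA carboxylases, which make malonyl-CoA, were called lower in all 5 comparisons. Acaca, the cytosolic form that feeds synthesis, changed by -0.68, -0.58, -0.84, -1.43 and -1.48, and Acacb, the mitochondrial form whose product restrains fatty acid oxidation, by -1.09, -0.74, -0.80, -1.28 and -1.36. Acacb was at 80.7 to 131 CPM in no DEN liver and 36.3 to 63.8 in NT liver at 8 weeks. The Acaca call of NT liver at 8 weeks ended when any 1 of rats F09, F10, H07, H08 or H18 was left out (log2 fold change -0.47 to -0.69, adjusted p 0.0746 to 0.105). The Acaca call of NT liver at 14 weeks ended when any 1 of rats F06, H09, H10, H21 or H22 was left out (log2 fold change -0.42 to -0.68, adjusted p 0.0517 to 0.104). Both Acaca calls also ended under upper-quartile scaling (-0.58 and -0.48, adjusted p = 0.0542 and 0.0781) and without the filter on low counts (-0.69 and -0.59, adjusted p = 0.0598 and 0.057). They ended under the hepatocyte scaling too (-0.51 and -0.16, adjusted p = 0.14 and 0.521) and without the F rats (-0.60 and -0.68, adjusted p = 0.232 and 0.0517). The Acacb call of NT liver at 14 weeks ended under the hepatocyte scaling (-0.29).

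Fasn, the synthase that builds palmitate, was not called at 8 weeks, when no DEN liver was at 1079, 1006, 1218 and 1155 CPM and NT liver at 1264, 743, 783 and 714. Rat F09 was the highest of all 8 there, and the other 3 NT livers lay below the controls (-0.35, SE 0.17, adjusted p = 0.136). At 14 weeks Fasn was at 1458, 1493, 835 and 1060 in no DEN liver, 552, 305, 289.7 and 728 in NT liver and 424, 310.0, 310.5 and 616 in nodules. At 20 weeks it was at 863, 1874, 1066 and 877 in no DEN liver, 389, 245, 329 and 787 in NT liver and 243, 310.2, 284 and 278 in nodules. The DEN samples of both weeks lay below the controls. Differences were -1.34 (SE 0.33, adjusted p = 0.00968) and -1.40 (SE 0.43, adjusted p = 0.0449) in NT liver, and -1.56 (SE 0.27, adjusted p = 0.0013) and -2.10 (SE 0.25, adjusted p = 0.000163) in nodules. The nodules of week 20 spread over 243 to 310.2 CPM, much less than NT liver, where rat H28 was highest. Elovl6, which lengthens palmitate, was near the limit of detection at 0.222 to 2.06 CPM and was called nowhere. Thrsp, a cofactor of lipid synthesis that follows thyroid hormone and feeding, changed by 0.05, -1.02, -0.98, -1.27 and -1.87, with calls at 14 weeks and in nodules at 20 weeks. The Fasn call of NT liver at 20 weeks ended when any 1 of rats F03, H14, H15, H16, H25 or H26 was left out (log2 fold change -1.08 to -1.55, adjusted p 0.0612 to 0.105), under upper-quartile scaling (adjusted p = 0.0513) and without the filter on low counts (adjusted p = 0.0705). The Thrsp call of NT liver at 14 weeks ended when any 1 of rats H09, H10, H21 or H22 was left out (log2 fold change -0.84 to -0.97, adjusted p 0.0567 to 0.066).

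Scd1, which desaturates stearate to oleate, fell from 14 weeks on. Its counts left out reads shared equally with its paralogs. At 14 weeks it was at 10300, 10090, 7334 and 5034 CPM in no DEN liver, 5818, 2399, 2612 and 4209 in NT liver and 2086, 1904, 2121 and 3640 in nodules. The NT liver of rat F06 overlapped the controls (-1.09, SE 0.33, adjusted p = 0.0205), whereas the nodules did not (-1.77, SE 0.28, adjusted p = 0.000838). At 20 weeks Scd1 was at 5745, 9821, 7547 and 8023 in no DEN liver, 4331, 1018, 2517 and 2606 in NT liver and 1719, 1144, 1685 and 1219 in nodules. Both DEN tissues then lay below all controls, with -1.56 (SE 0.39, adjusted p = 0.0226) in NT liver and -2.46 (SE 0.22, adjusted p = 4.1e-05) in nodules. At 8 weeks the difference was -0.43 and was not called. The Scd1 call of NT liver at 14 weeks ended when any 1 of rats H10 or H22 was left out (log2 fold change -0.95 to -0.97, adjusted p 0.0512 to 0.0541). The Scd1 call of NT liver at 20 weeks ended when any 1 of rats H14, H26 or H28 was left out (log2 fold change -1.43 to -1.56, adjusted p 0.0528 to 0.0626).

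Pnpla3, a lipid droplet protein that follows feeding and SREBP-1c, had the largest difference of the 35 in 4 of the 5 comparisons. It was at 654, 361, 643 and 345 CPM in no DEN liver and 251, 131, 236 and 173 in NT liver at 8 weeks (-1.34, SE 0.28, adjusted p = 0.00548), a call that was lost with all 8 groups in 1 fit (-1.34, adjusted p = 0.0808). At 14 weeks it was at 339, 1267, 559 and 432 in no DEN liver, 102, 57.6, 55.5 and 81.3 in NT liver and 63.1, 71.1, 67.9 and 72.1 in nodules. The highest DEN sample was far below the lowest control, and the differences were -3.10 (SE 0.47, adjusted p = 0.00102) and -3.26 (SE 0.39, adjusted p = 0.000184). At 20 weeks it was at 119, 946, 207 and 219.7 in no DEN liver, 79.2, 10.9, 26.2 and 189 in NT liver and 34.5, 25.8, 43.0 and 44.5 in nodules. The control rat H14 was far above the other 3, and among NT livers rat H25 was the lowest and H28 above 1 of the controls. The NT difference of -2.26 (SE 1.08, adjusted p = 0.167) was not called, and that of nodules, -3.37 (SE 0.60, adjusted p = 0.00137), was. Gpam, which starts triglyceride synthesis in mitochondria, was called lower in NT liver at 20 weeks (-0.88, SE 0.23, adjusted p = 0.0234) and in nodules at 14 and 20 weeks (-1.41 and -1.50). Without rat H25 the Gpam difference of NT liver at 20 weeks was -0.84 with an adjusted p of 0.0511 and was no longer called, nor was it with all 8 groups in 1 fit (-0.90, adjusted p = 0.0703). The Gpam call of nodules at 14 weeks ended when any 1 of rats H09, H10 or H22 was left out (log2 fold change -1.29 to -1.36, adjusted p 0.0764 to 0.079) or with nodule 1 of each rat alone (-1.20, adjusted p = 0.0998).

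**Figure D2:**
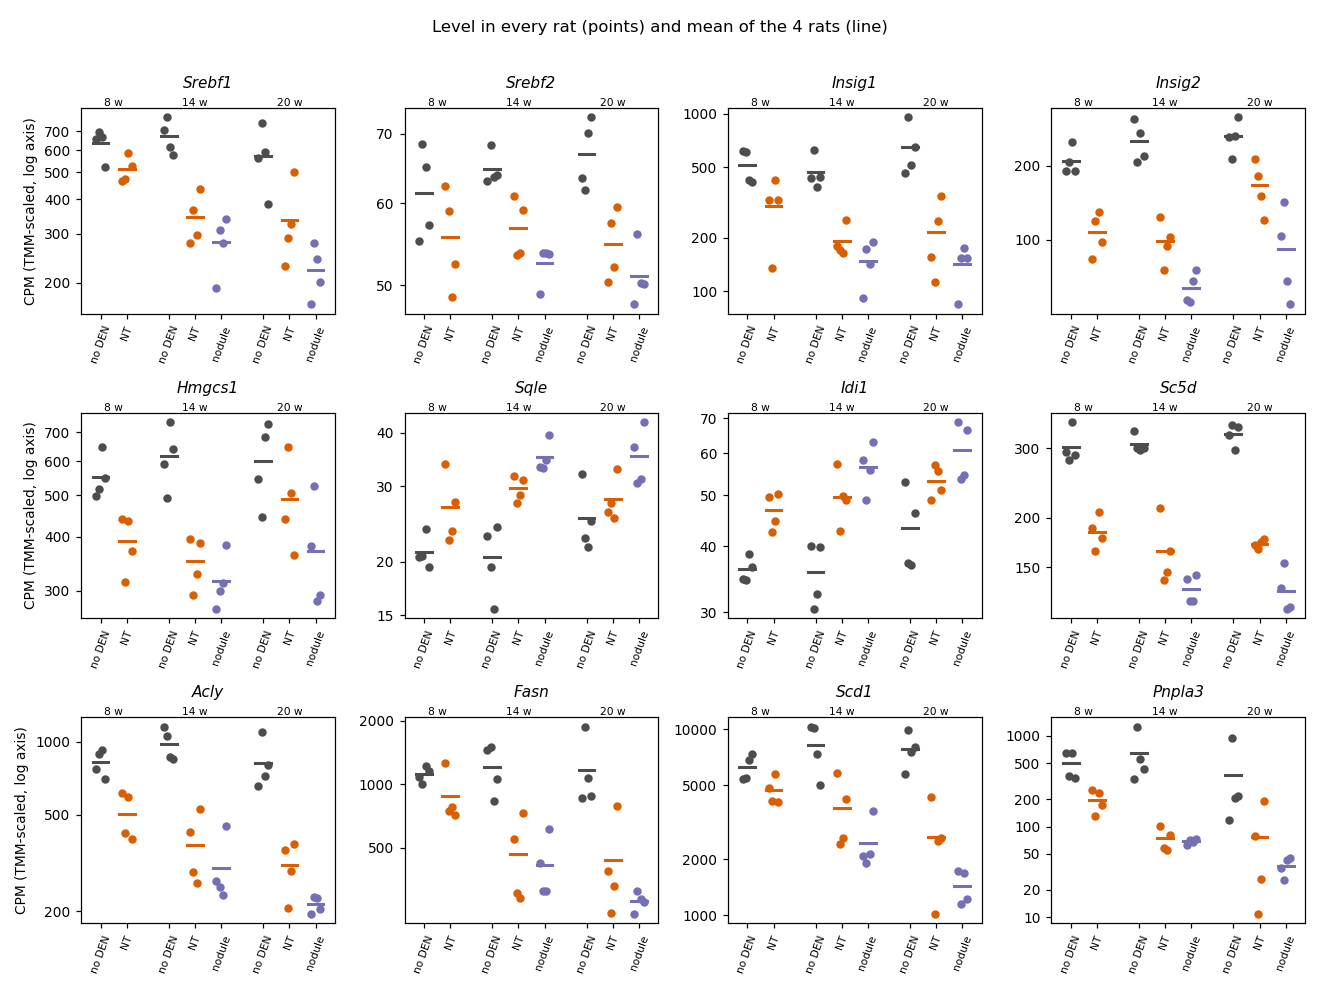
CPM of 12 of the genes in each rat (points, log axis) by group, with the mean of the 4 rats as a short line; nodules of a rat are summed. Sc5d and Acly separate no DEN liver from all DEN groups, Srebf2 spans a narrow range, and Pnpla3 in no DEN liver at 20 weeks runs from 119 to 946 CPM.

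The arms were also compared within each rat by the mean log2 CPM of their genes, as a description without a test. The fatty acid arm was at 7.26 ± 0.20, 7.49 ± 0.29 and 7.33 ± 0.39 (SD, n = 4) in no DEN liver at 8, 14 and 20 weeks, and at 6.56 ± 0.24, 6.41 ± 0.35 and 6.14 ± 0.50 in NT liver, with ranges that did not overlap at any time. Nodules were at 6.08 ± 0.38 and 5.71 ± 0.15 at 14 and 20 weeks and overlapped NT liver at both times. Within a rat, nodules were below NT liver in all 4 rats at 14 weeks and in all but H25 at 20 weeks. The sterol arm moved over a narrower span, from 6.27 ± 0.09, 6.29 ± 0.10 and 6.41 ± 0.08 in no DEN liver to 6.10 ± 0.11, 6.01 ± 0.15 and 6.04 ± 0.06 in NT liver and 5.94 ± 0.15 and 5.93 ± 0.08 in nodules. The difference between the arms in a rat, fatty acid minus sterol, was 0.92 to 1.18 in no DEN liver against 0.30 to 0.62 in NT liver at 8 weeks. It was 0.95 to 1.46 against 0.15 to 0.69 at 14 weeks, with nodules at -0.05 to 0.46, and 0.58 to 1.49 against -0.57 to 0.61 at 20 weeks, with nodules at -0.48 to 0.01. Thus the balance of the arms in NT liver separated from that of no DEN liver at 8 and 14 weeks and overlapped it at 20 weeks, where rat H28 reached 0.61. Within a rat the difference was lower in nodules than in NT liver in all 4 rats at 14 weeks and in all but H25 at 20 weeks. A constant offset of length and abundance enters this difference, so only its change between groups can be read.

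**Figure D3:**
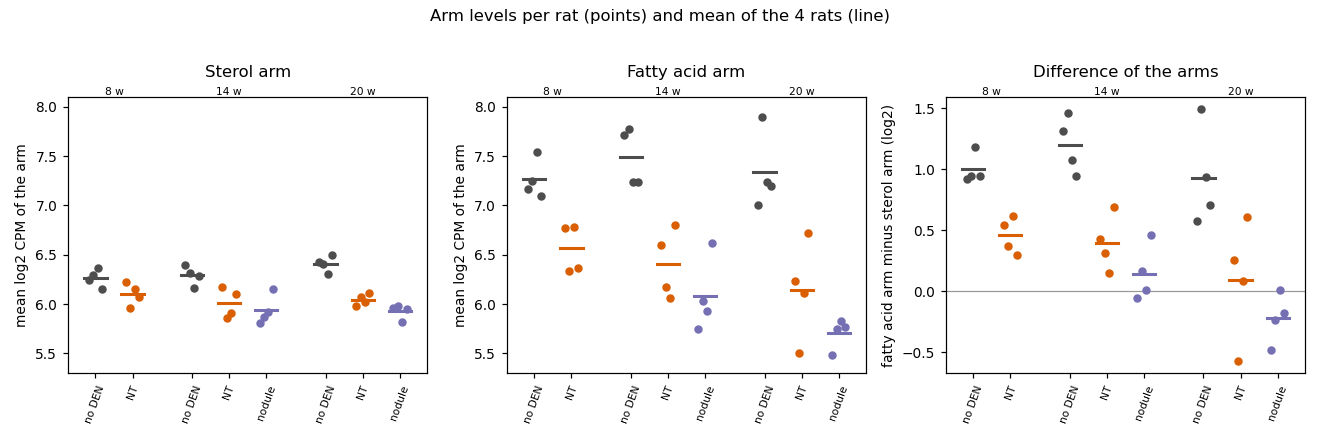
Mean log2 CPM of the sterol arm (19 genes) and the fatty acid arm (11 genes) in each rat, and their difference, by group (4 rats each; short lines are means). The mean of the fatty acid arm steps down from no DEN liver to NT liver to nodules, although the ranges of NT liver and nodules overlap and rat H25 rises from 5.50 to 5.75 at 20 weeks, and the difference of the arms ends at or below 0.01 in the nodules of week 20.

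Most members shared 1 order of the group means. At 14 weeks 22 of the 35 genes (62.9%) had their means in the order no DEN liver, NT liver, nodules, against 26.7% of the 11596 genes tested in all groups, and at 20 weeks 27 (77.1%), against 33.6%. By set these were 8 of 19 and 12 of 19 in the sterol arm and 9 of 11 and 10 of 11 in the fatty acid arm. The opposite order held for 4 members at 14 weeks and 3 at 20 weeks (11.4% and 8.57%), against 33.2% and 39% of all genes.

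Nodules were then compared directly with the NT liver of the same rats. In the edgeR fit of the 2 tissues without regard to the pairing no member was called at either time, as no gene at all was (0% higher and 0% lower at both times). At an unadjusted p of at most 0.05 there were 8 and 17 members and 1348 and 2767 genes, and DESeq2 called 35 and 902 genes. Other unpaired edgeR fits called genes at 20 weeks: 1096 with all 8 groups in 1 fit, 2 members among them, 218 with nodule 1 of each rat alone, 445 without rat H25 and 667 under the hepatocyte scaling. The tissues of a rat deviated together, and with the rat as a block 9.21% of all genes were higher and 5.46% lower at 20 weeks, and 0% in either direction at 14 weeks. In that fit 3 members were lower in nodules at 20 weeks and none higher: Stard4 at -0.61 (SE 0.10, adjusted p = 0.00101), Insig2 at -0.96 (SE 0.13, adjusted p = 0.000897) and Gpam at -0.62 (SE 0.10, adjusted p = 0.00164). Dhcr7 was higher in the nodules of all 4 rats at 0.42 (SE 0.09, adjusted p = 0.00365), under the fold for a call. It was 1 of 11 members that passed the adjusted p but not the fold, 9 of them lower, such as Sc5d (-0.43, adjusted p = 0.00476), Nsdhl (-0.42, adjusted p = 0.00749) and Hmgcs1 (-0.44, adjusted p = 0.011), and 2 higher, the other being Sqle (0.30, adjusted p = 0.0106). Srebf1, at -0.59 (SE 0.19, adjusted p = 0.0589), and Scd1, at -0.74 (SE 0.24, adjusted p = 0.0528), were not called.

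**Figure D4:**
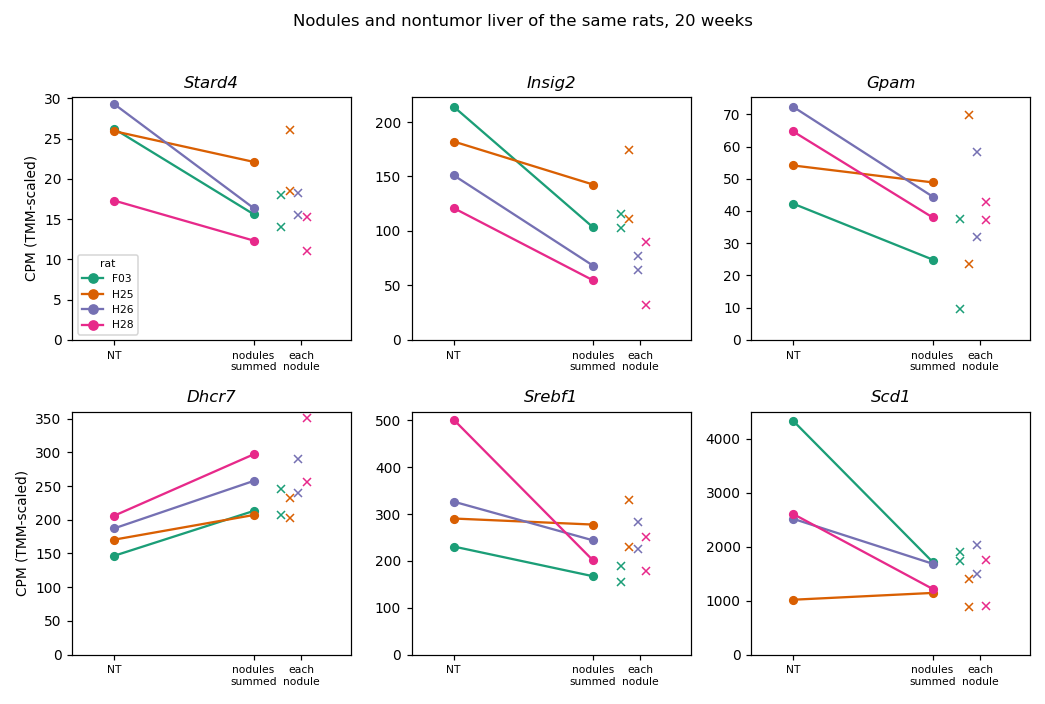
CPM in NT liver and in the summed nodules of the same 4 rats at 20 weeks (lines join a rat, crosses are its single nodules) for Stard4, Insig2, Gpam, Dhcr7, Srebf1 and Scd1. Stard4, Insig2 and Gpam go down and Dhcr7 goes up in every rat. Crosses were scaled among the 40 libraries and joined points after the nodules were summed, so the crosses and points are not on the same scale.

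The 2 nodules of 1 rat were not alike in every gene. The larger value exceeded the smaller by a median of 1.04 to 1.48 times over the fatty acid arm and 1.12 to 1.25 times over the sterol arm in the 8 rats. In rat F03 Gpam differed 3.97-fold between its nodules. In rat H28 nodule 1 was the higher for all 11 genes of the fatty acid arm, and in rat F06 for none of them. The same ratios over all genes were not computed, so these differences cannot be read as particular to the arms. Nodule 1 of F06 also had the highest share of read pairs assigned to no gene, as they were not wholly within exons of a gene on the counted strand (34.5%, the next library being at 28.2%), and the part of this in its values was not tested.

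The spread between rats was wider in the fatty acid arm. Its median coefficient of variation was 21% to 38.4% in the 8 groups, against 8.65% to 15.3% in the sterol arm and 9.81% to 18.4% over all genes tested. Single rats led the arm in their group: H14 was the highest no DEN rat of week 20 in all 11 genes, H23 had the highest nodules of week 14 in 9 of 11 (and in 15 of 19 of the sterol arm), and H25 was the lowest NT liver of week 20 in 9 of 11. In the sterol arm H28 was the highest NT liver of week 20 in 10 of 19, and F06 that of week 14 in 14 of 19. Rats F10 (NT liver, 8 weeks), H21 (NT liver, 14 weeks) and H11 (no DEN liver, 14 weeks) were each lowest in 13 of 19. Such ranks were not counted over all genes, so a deviation of a whole library cannot be told apart from one of an arm.

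Age alone did not move these genes past the threshold. In no DEN liver no member was called between 8 and 14 weeks or between 14 and 20 weeks (0% of all genes higher and 0% lower in both), and 2 and 7 members reached an unadjusted p of 0.05, with 1038 and 670 genes of all and 20 and 18 genes called by DESeq2. Leaving out the control rat H07 gave 117 genes between 8 and 14 weeks, 90 higher and 27 lower, with no member among them. The largest age values were 0.68 for Gpam at 14 against 8 weeks and -0.79 for Pnpla3 at 20 against 14 weeks. The change of the NT difference from 14 to 20 weeks was called for no member (0.738% of all genes), nor was that of the nodule difference (0.0862%). For Hmgcs1 the former was 0.49 (SE 0.26, adjusted p = 0.342) and for Insig2 0.67 (SE 0.26, adjusted p = 0.215). Other members had the larger NT difference at 20 weeks, such as Insig1 with a change of -0.32 (SE 0.44, adjusted p = 0.754) and Scd1 with -0.47 (SE 0.54, adjusted p = 0.692). Neither the smaller nor the larger differences at 20 weeks, after DEN had stopped, were shown to differ from those at 14 weeks.

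Genes around the pathway were taken from lists, counted here as called lower and higher in the same order of 5 comparisons. Among all genes tested 5.21%, 9.85%, 3.82%, 15.2% and 15.2% were called lower and 16.5%, 22.8%, 14.3%, 23.9% and 23.6% higher, and the counts of these and the following lists stand beside those shares without a test. Of 18 other sterol genes tested 3, 4, 2, 7 and 7 were lower and 3, 6, 6, 4 and 6 higher. Abcg8, which exports sterols into bile, was higher in all 5, at 2.54 (SE 0.41, adjusted p = 0.00084) in nodules at 20 weeks.

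Of 24 other fatty acid and triglyceride genes 9, 12, 11, 14 and 14 were lower and 2, 4, 3, 3 and 4 higher. Fads2, a desaturase of polyunsaturated fatty acids, was at -2.00 (SE 0.26, adjusted p = 0.000251) and Elovl5, an elongase, at -1.72 (SE 0.20, adjusted p = 0.000162) in nodules at 20 weeks. Scd2, a paralog of Scd1, was higher where Scd1 was lower: 3.65 (SE 0.56, adjusted p = 0.00123) in NT liver and 4.24 (SE 0.53, adjusted p = 0.000224) in nodules at 14 weeks, from a mean of 7.64 CPM in no DEN liver to 93.6 and 147 CPM. Of the genes of SREBP processing 1, 0, 1, 1 and 2 of 9 were lower and 1, 2, 1, 1 and 1 higher. Of 6 suppliers of NADPH 2, 1, 1, 2 and 2 were lower and 0, 4, 0, 4 and 4 higher: Me1, malic enzyme, was at -0.99 in nodules at 20 weeks.

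Genes of the fasting liver and of the clock were counted as well, where 3.82% to 15.2% of all genes tested were lower and 14.3% to 23.9% higher. Of 11 fasting genes 4, 4, 2, 6 and 7 were lower and 0, 1, 1, 1 and 1 higher, with Cpt1a, which admits fatty acids to mitochondria, at -1.90 in nodules at 14 weeks, and of 13 clock genes 1, 1, 1, 4 and 5 were lower and 0, 1, 1, 1 and 1 higher. Their part in the levels of the synthesis genes was not tested.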

How the data were processed

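RNA-seq of 40 rat liver libraries (24 rats, 8 groups, 4 rats per group) was analysed. Libraries were strand-specific, from polyadenylated RNA. The authors deposited raw counts of read pairs per gene, obtained with STAR 2.7.1a on rat genome rn6 and HTSeq, which kept only pairs lying wholly within exons of 1 gene, on the stated strand, and dropped pairs that fit several places. Close paralogs therefore lose counts. Rows that name no gene were left out of library sizes: up to 34.5% of the pairs of a library were assigned to no gene, as they were not wholly within exons of a gene on the counted strand, and up to 16.3% were not placed uniquely.

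The 2 nodules of each rat were added together. Each comparison was fitted on its own groups in edgeR 4.0.16 (R 4.3.3) with TMM scaling, filterByExpr and the robust quasi-likelihood F test, 2-sided, with Benjamini-Hochberg adjustment over all genes tested. A gene was called at an absolute log2 fold change of at least 0.5 and an adjusted p of at most 0.05, and a change with time at the adjusted p alone. Levels are TMM-scaled CPM, and log2 CPM carries a prior count of 2. The NT liver and nodules of a week carry the same rat labels, and the 2 tissues of a rat deviated together (r from 0.368 to 0.545 in 8 of 8 rats), so the fit with the rat as a block is given where it changed a call. Fits were run on simulated counts with known changes. These were drawn without an effect of the rat, so the fit with the rat as a block was not tested under pairing.

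All members are named. Values per rat are given for Srebf1, Srebf2, Insig1, Hmgcs1 and Fasn, and in each main comparison for up to 4 called members of each set, 2 that rose most and 2 that fell most. Pmvk was added to these for its change with time, after its values were seen. From the other lists at most 3 called genes have values, and some genes of these lists are not reported here. The members and all lists were chosen with earlier results of these data known, so their counts are no independent evidence. Alternatives were DESeq2 1.42.0, other scalings, no filter, all groups in 1 fit, single nodules, the rats without F labels, each rat left out and a stricter threshold. Scaling to hepatocyte genes and leaving out nodule 1 of F06 and F03 were added after seeing the data.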

Additional observations from a re-analysis of the deposited data

Results flagged for a closer look

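In each of the 280 sets of 4 rats (35 genes in 8 groups) the gap between the most extreme rat and its nearest neighbour was set against the range of the group. The ratio passed Dixon's critical value at the 95% level in 15 sets, about as many as chance gives, which flags about 1 in 20. Rat F06 held 7 of them at 14 weeks: among nodules it was lowest in Mvd (7.73 CPM, the others from 12.6 to 13.5, ratio 0.841), Srebf2 (49.1 against 53.6 to 53.7, 0.966) and Acacb (37.3 against 51.9 to 53.5, 0.898) and highest in Ebp (206 against 94.2 to 99.1, 0.956), and among NT livers it was highest in Cyp51 (296 against 195 to 211, 0.844) and Scap (78.6 against 63.8 to 64.2, 0.971) and lowest in Dhcr7 (149 against 223 to 238, 0.831). The gaps in Srebf2 and Scap were small in CPM.

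Rat F09 was the highest NT liver of week 8 in Fasn (1264 CPM against 714 to 783, 0.874) and Dhcr7 (184 against 164 to 165, 0.910). Rat H23 had the highest nodules of week 14 in Acly (450.5 against 234 to 265, 0.854) and Scd1 (3640 against 1904 to 2121, 0.875). The no DEN rat H14 was the highest of week 20 in Pnpla3 (946 against 119 to 219.7, 0.878) and Gpam (161 against 89.4 to 92.6, 0.955). No DEN rats of week 14 gave the remaining 2, H09 in Sc5d (331 against 296 to 301, 0.869) and H10 in Srebf2 (68.3 against 63.1 to 63.9, 0.838).

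For Pmvk the difference of NT from no DEN liver was 0.05 at 8 weeks and -0.66 at 14 weeks, a change of -0.71 on the log2 scale that passed its own edgeR test (adjusted p = 0.0151).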

How the results depend on the processing

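Of 1492 values of single called genes under an alternative, 1359 kept their direction and their call, 129 were no longer called and 4 turned sign; of 619 counts and medians 563 stayed within their limits. The 4 turned under the hepatocyte scaling: in nodules at 14 weeks Pmvk (0.00975), Scap (0.0821) and Acss2 (0.0894), and at 20 weeks Cyp51 (0.000138). The same scaling, which also ended 38 of 89 calls, gave 2, 5 and 1 members higher in NT liver at 8, 14 and 20 weeks and 6 and 8 lower at 14 and 20 weeks. Of all genes 21.6%, 45.9% and 22.1% were then higher there and 2.54% and 1.51% lower. In nodules it gave 6 and 4 higher and 10 and 13 lower, where 59% and 53.7% of all genes were higher and 3% and 3.67% lower. Medians of the sterol arm were -0.0283, 0.144 and -0.1 in NT liver, 0.275 and -0.00741 in nodules, and 0.147 and 0.107 for nodules against NT liver, and those of the fatty acid arm -0.613 in NT liver at 14 weeks and -0.787 and -0.922 in nodules. The cause was not tested.

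Members called higher in NT liver at 14 weeks were 1 by DESeq2, RLE scaling, all groups in 1 fit or without the F rats (20.8%, 22.3%, 22.6% and 23.1% of all genes higher), 0 under the stricter threshold, and 0 to 2 when 1 rat was left out (21.8% to 23.1%). Under that threshold 3, 6 and 1 were lower at 8, 14 and 20 weeks, where 7.91%, 15.2% and 5.22% of all genes passed in either direction. In nodules at 14 weeks nodule 2 alone gave 1 higher (23.6% of all genes). At 20 weeks upper-quartile scaling or nodule 2 alone gave 2 higher (28.3% and 22.3%) and leaving out 1 rat 0 to 2 (20.7% to 24.5%), and the sterol median was -0.454 by upper-quartile scaling, -0.707 and -0.433 for nodule 1 or 2 alone, -0.493 without nodule 1 of F06 and F03, and -0.672 to -0.572 without 1 rat. That of NT liver at 20 weeks ran from -0.413 to -0.289 without 1 rat. Upper-quartile scaling moved the median of all genes up by 0.150 at most.

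For nodules against NT liver at 20 weeks the rat as a replicate block gave 3 members lower (5.46% of all genes), DESeq2 4 (2.09%), all groups in 1 fit 2 (2.53%), and leaving out 1 rat 0 to 3 (3 without H25, with 1.64% of all genes lower). The sterol median was -0.0768 for nodule 2 alone and -0.253 to -0.122 without 1 rat. The block changed no call of a member at 14 weeks. The change of the NT difference from 8 to 14 weeks was called for 5 members by DESeq2 (13.5% of all genes), 2 without the F rats (9.53%) and 1 to 5 without 1 rat (4.73% to 16.5%), with 5 without F06 (15.6%). Every library held at least 20528515 counted pairs, and Elovl6 was the member with the lowest levels, at 2.06 CPM or less.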
